A study of Mus musculus with 24 samples.

Results

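The subject of this report was a set of 10 immediate early genes, taken by name from the 52636 gene identifiers counted in every library, namely Fos, Fosb, Junb, Egr1, Egr2, Egr4, Arc, Npas4, Nr4a1 and Ier2. Their RNA was measured in the bilateral nucleus accumbens (NAc) of 24 C57BL/6 mice aged 50 days, the ventral striatal region known for its part in reward and motivation. Control (Con) litters were left without the stress, and MSUS litters went through maternal separation combined with unpredictable maternal stress, given in the series' design text as 2 h per day from postnatal day 1 to 14, whereas the study's methods give a longer daily separation over the same days. Each condition was represented by 6 females and 6 males, which gave 4 groups of 6 animals. No animal received a drug before the tissue was taken, and what each mouse did in the hours before death was not given. The litter of each animal was not given either, so p-values measure the spread between these mice and would be too small if litter mates were among them. In bulk tissue, fewer cells of a type and less RNA per cell cannot be told apart.

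Immediate early genes are transcribed within minutes of synaptic activity or growth factor signalling, from transcription factors already present in the cell, and their RNA is short-lived. Calcium entry and receptor signalling activate kinases that phosphorylate CREB, which binds the cAMP response element (CRE), and the partners of serum response factor, which binds the CArG box. In the striatum, Fos and its relatives are widely used as a record of recent neuronal activation, for example by psychostimulants or stress.

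By role, Fos, Fosb and Junb encode subunits of the AP-1 transcription factor. Egr1, Egr2 and Egr4 encode zinc finger transcription factors of one family, Npas4 a neuron-specific bHLH-PAS factor and Nr4a1 an orphan nuclear receptor. Arc encodes a cytoskeletal protein that acts in the removal of AMPA receptors from synapses, and Ier2 a small nuclear protein. In GENCODE coordinates on mm10, Fos (ENSMUSG00000021250.13) lies at chr12:85473890-85477273 (+), Fosb (ENSMUSG00000003545.3) at chr7:19302696-19310051 (-) and Junb (ENSMUSG00000052837.6) at chr8:84974484-84978718 (-). Egr2 (ENSMUSG00000037868.15) lies at chr10:67535475-67542188 (+) and Egr4 (ENSMUSG00000071341.4) at chr6:85511121-85513589 (-), while the third of this family is Egr1 (ENSMUSG00000038418.7). Arc (ENSMUSG00000022602.14) lies at chr15:74669083-74672570 (-), Npas4 (ENSMUSG00000045903.8) at chr19:4984355-4990316 (-), Nr4a1 (ENSMUSG00000023034.6) at chr15:101254269-101274795 (+) and Ier2 (ENSMUSG00000053560.4) at chr8:84661331-84662852 (-). All 10 are protein-coding, and only sense-strand read pairs in their exons were counted.

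Promoter sequence was at hand for 7 of the 10 genes, Fos, Fosb, Junb, Egr2, Egr4, Npas4 and Nr4a1. The core of the CRE, TGACG on either strand, was found in the 250 bases before the start of 6 of these 7 genes, the exception being Egr2. It was found in 17.9% of 32536 RefSeq promoters of the same length. Of 5 RefSeq starts listed for Egr2, only the window of the start nearest the annotated one was searched. Nr4a1 held 4 copies, Fos, Egr4 and Npas4 held 2 each, and Fosb and Junb held 1 each. Below are 4 of these promoters, those of the genes with more than 1 copy, to show how the copies are spaced. Each is the 250 bases before the RefSeq start on GRCm38.p6, written 5′ to 3′ on the strand of the gene, and the capitals mark TGACG or its reverse complement.
Fos promoter, chr12:85473640-85473889 (+): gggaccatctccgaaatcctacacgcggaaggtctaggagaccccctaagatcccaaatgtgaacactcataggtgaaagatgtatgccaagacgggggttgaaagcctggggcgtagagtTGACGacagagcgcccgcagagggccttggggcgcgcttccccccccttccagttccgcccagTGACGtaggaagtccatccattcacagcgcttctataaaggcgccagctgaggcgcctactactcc
Egr4 promoter, chr6:85513590-85513839 (-): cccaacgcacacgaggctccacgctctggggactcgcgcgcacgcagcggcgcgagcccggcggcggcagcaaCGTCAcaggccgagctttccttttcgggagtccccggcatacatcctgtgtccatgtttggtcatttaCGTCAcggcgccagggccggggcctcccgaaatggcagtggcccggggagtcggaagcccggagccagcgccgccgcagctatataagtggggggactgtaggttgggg
Npas4 promoter, chr19:4989972-4990221 (-): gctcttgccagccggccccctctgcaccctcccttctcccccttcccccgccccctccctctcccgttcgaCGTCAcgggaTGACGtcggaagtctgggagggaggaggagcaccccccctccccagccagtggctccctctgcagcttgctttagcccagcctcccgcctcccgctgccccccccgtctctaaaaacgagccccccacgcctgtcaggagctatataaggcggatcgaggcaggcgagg
Nr4a1 promoter, chr15:101266596-101266845 (+): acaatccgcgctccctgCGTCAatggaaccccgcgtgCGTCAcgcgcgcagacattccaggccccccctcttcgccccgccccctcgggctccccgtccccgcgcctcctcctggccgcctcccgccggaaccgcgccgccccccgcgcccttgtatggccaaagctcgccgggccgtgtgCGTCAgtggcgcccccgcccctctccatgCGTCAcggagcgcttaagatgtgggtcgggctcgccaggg
Counted back from the start, the copies lay at -129 to -125 and -66 to -62 in Fos and at -177 to -173 and -109 to -105 in Egr4. In Npas4 they lay close together, at -179 to -175 and -169 to -165, before a RefSeq start 345 bases inside the annotated gene. In Nr4a1 they lay at -233 to -229, -213 to -209, -69 to -65 and -40 to -36, before a RefSeq start 12577 bases inside the annotated gene. The whole palindrome TGACGTCA and the CArG box were in none of the 7 windows, against 1.56% and 1.48% of all promoters. The EGR site, GCGGGGGCG or GCGTGGGCG on either strand, was in the Fosb and Nr4a1 windows and in 3.09% of all promoters, and TATAAA was in the Fos window and in 12.3%. The AP-1 site, TGACTCA or TGAGTCA, was in none of the 7 and in 4.45% of all promoters. TGACG lies within TGACGTCA but not within the other motifs. These matches describe letters in a window and do not show that a factor was bound. Sequence farther from the start was not searched, so a motif absent here may lie there.

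Each library held 39923666 to 70575745 sense read pairs assigned to genes, so that even the lowest member was read at least 74 times in every animal. Xist had 56771 to 81737 counts in the 12 females and 1 to 25 in the 12 males, which matched the labelled sex of every library. Markers of medium spiny neurons, the principal cells of the NAc, were high in every library, since the 8 markers shared by both pathways summed to 152400 to 358000 normalized counts. The 10 markers of cortical excitatory neurons, which are not a cell type of the NAc, summed to 4066 to 90050 normalized counts and were at 0 in no library. The share of uniquely mapped pairs that fell in no gene on the sense strand ran from 31.0% to 44.7%, and was 32.7 ± 1.55% in Con females against 38.0 ± 2.23% in Con males, 39.97 ± 2.72% in MSUS females and 37.2 ± 4.55% in MSUS males (mean ± SD, n = 6 each).

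The 10 genes covered a wide range of levels in the undrugged NAc. Per length, as FPKM, the fragments per kilobase of exon scaled for library depth (mean ± SD over 24 animals), Egr1 was the most abundant at 48.4 ± 12.5. Arc followed at 22.3 ± 11.1, Junb at 15.5 ± 5.06 and Nr4a1 at 14.8 ± 6.66. Egr4 was at 9.68 ± 2.53, Npas4 at 6.7 ± 4.13 and Fos at 4.45 ± 3.13. The lowest levels were those of Fosb at 2.52 ± 0.696, Egr2 at 1.82 ± 0.988 and Ier2 at 1.73 ± 0.648. Egr1 stood above Arc by more than their summed SDs, whereas every other pair of neighbours in this order differed by less than that.

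They also differed between mice of 1 group more than most genes did. The median coefficient of variation (CV) within groups was 8.46% over the 14280 genes with a mean above 100 normalized counts. It was 49.6% for Fos, higher than in 98.8% of those genes, and 43.7% for Npas4. Ier2 (32.7%), Egr2 (33.0%), Arc (31.2%) and Nr4a1 (30%) came next. The steadiest members were Junb (22.1%), Egr1 (19.7%), Fosb (18.7%) and Egr4, whose 14.6% was still above that of 77.9% of genes. From the lowest to the highest of the 24 mice, Fos spanned 7.99-fold, Egr2 6.59-fold, Npas4 6.31-fold and Arc 5.16-fold, against 2.28-fold for Egr1.

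**Figure D1:**
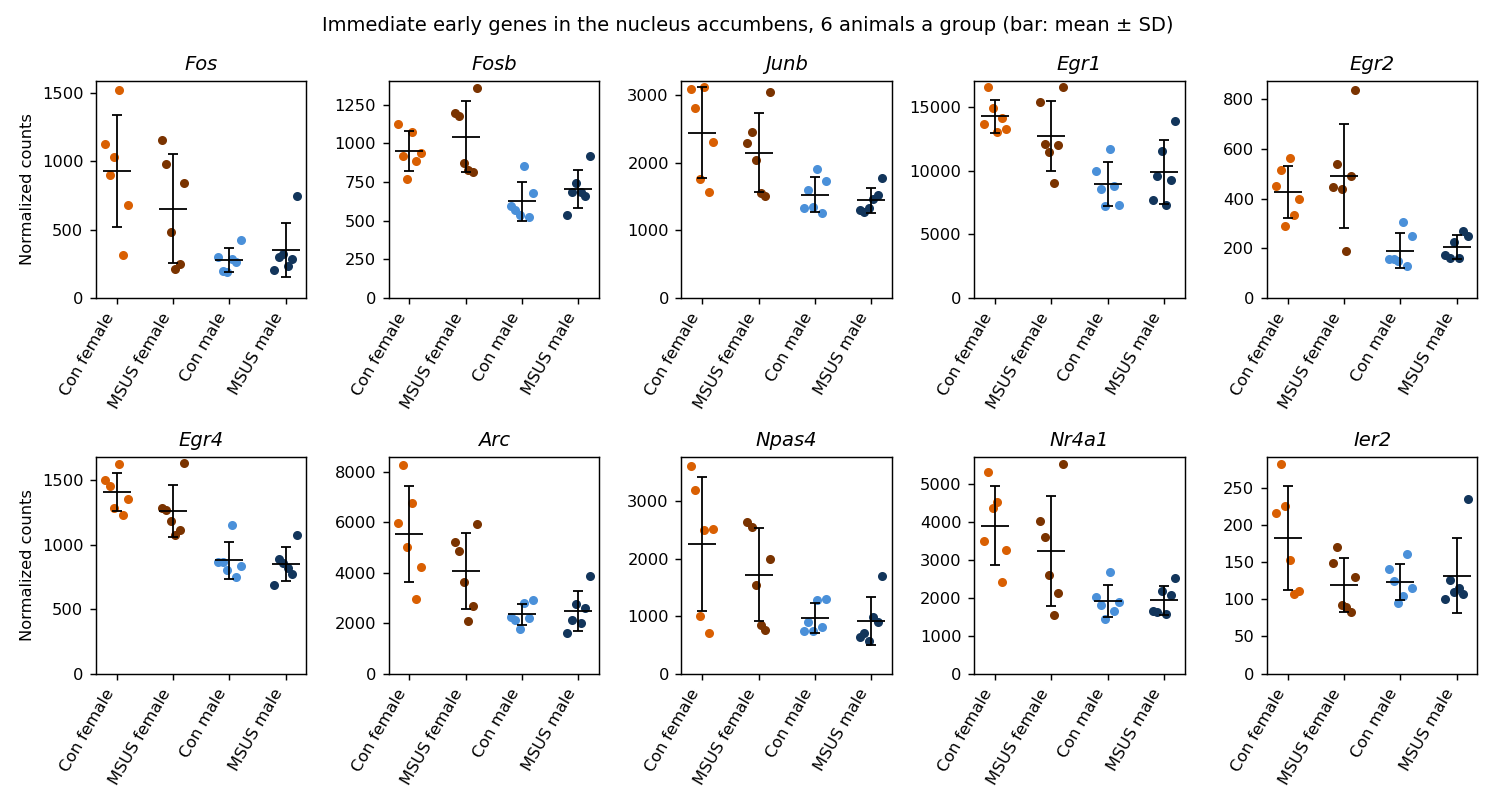
Normalized counts of each immediate early gene (vertical axis, from 0) in the 6 animals of each group (points), with the mean ± SD as bars. Females lay above males for most genes, as for Egr4, where 10 of 12 females exceeded the highest male, and the female points of Fos, Arc and Npas4 spread widely.

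The comparison of Con females with Con males asked how the genes differ between the sexes without early-life stress. All 10 genes had a higher fitted level in Con females, and 8 of them passed an adjusted p of 0.10 in edgeR's quasi-likelihood test with Benjamini-Hochberg adjustment over 20641 genes. In the same comparison, 0.799% of all tested genes were called higher in females. The called genes were the AP-1 subunits Fos, Fosb and Junb, the factors Egr1, Egr2, Egr4 and Nr4a1, and Arc. Npas4 and Ier2 were not called, with adjusted p of 0.122 and 0.234. The median log2 difference of the 10 genes was 0.86, against 0.013 over all tested genes.

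Fos ranged from 311.5 through a median of 966.4 to 1521 normalized counts in Con females, and from 190.4 through 276.0 to 427.4 in Con males. Fosb ranged from 768.0 through 928.3 to 1127 in Con females, and from 521.1 through 580.1 to 857.0 in Con males. Junb ranged from 1569 through 2565 to 3117 in Con females, and from 1252 through 1467 to 1902 in Con males. In each AP-1 gene the groups overlapped, since Con female 5 for Fos, Con female 3 for Fosb and both of them for Junb lay within the male range. The other females were above every male. The log2 difference was 1.75 ± 0.329 (SE) for Fos, a 3.35-fold higher level (edgeR adjusted p = 0.0584). It was 0.61 ± 0.127 for Fosb (edgeR adjusted p = 0.0678) and 0.69 ± 0.181 for Junb (edgeR adjusted p = 0.0995), the latter at the edge of the threshold.

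Egr4 ranged from 1234 through 1406 to 1623 normalized counts in Con females, and from 752.1 through 848.6 to 1154 in Con males. Egr1 ranged from 13030 through 13890 to 16580 in Con females, and from 7256 through 8699 to 11720 in Con males. Egr2 ranged from 288.6 through 423.7 to 562.2 in Con females, and from 127.0 through 155.9 to 307.0 in Con males. Every Con female was above every Con male for Egr1 and Egr4, whereas Egr2 in Con female 3 was below Con male 4. The log2 difference was 0.69 ± 0.0987 for Egr4 (edgeR adjusted p = 0.0127), 0.68 ± 0.111 for Egr1 (edgeR adjusted p = 0.0348) and 1.16 ± 0.232 for Egr2 (edgeR adjusted p = 0.0665). Egr4, with the smallest spread within groups, ranked 15 of all tested genes by p, although Fos differed by a larger factor.

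Arc, the synaptic effector, ranged from 2942 through 5490 to 8262 normalized counts in Con females, and from 1787 through 2214 to 2931 in Con males. Nr4a1 ranged from 2421 through 3942 to 5327 in Con females, and from 1432 through 1843 to 2691 in Con males. Npas4 ranged from 712.4 through 2509 to 3621 in Con females, and from 734.7 through 859.5 to 1302 in Con males. For Arc the groups just failed to overlap, and for Nr4a1 only Con female 5 lay among the males. Npas4 was lower in Con female 5 than in any Con male, although 4 other females exceeded all males. Arc was 2.37-fold higher (log2 1.24 ± 0.220, edgeR adjusted p = 0.0562) and Nr4a1 2.04-fold higher (log2 1.03 ± 0.190, edgeR adjusted p = 0.0582). Ier2 ran from 106.7 through 184.7 to 282.0 in Con females and from 94.58 through 119.9 to 161.0 in Con males, and 3 of the females were above every male. Its log2 difference was 0.57 ± 0.236, with a 95% interval of 0.10 to 1.03. Egr1, Egr4 and Arc were thus the 3 members with every Con female above every Con male, a pattern seen in 0.858% of tested genes.

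Single animals decided the number of calls. It fell to 1 (Egr4, edgeR adjusted p = 0.0751) without Con male 3, to 2 without Con male 1, Con female 1 or Con female 4, to 4 without Con female 2, and to 5 without Con female 5 or Con male 4. Calls over all genes fell in the same fits, from 544 to between 20 (without Con female 4) and 93 (without Con female 2). All 10 differences stayed positive in each of these fits. The share of pairs outside genes nearly separated these 2 groups, so a fit with it as a covariate had little to tell it apart from sex. In that fit 0 of the 10 genes and 11 of all genes were called, although the log2 differences of the 10 were 0.42 to 1.75. Cortical excitatory markers also tended higher in Con females (median log2 difference of the 10 markers 0.96, 0 called). Their score as a covariate left 3 members called, among 27 genes in all. With the replicate number as a block 3 were called (Fosb, Egr2 and Egr4), and with the library set, numbers 1 to 12 or 13 to 24, as a covariate the count was 8. Within library numbers 1 to 12 or 13 to 24, with 3 animals a group, all 10 differences were positive and 0 were called.

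In MSUS, females were again above males for 9 of the 10 genes, with Ier2 as the exception, but 0 of the 10 passed the threshold (edgeR's quasi-likelihood test, Benjamini-Hochberg over 20714 genes). In this comparison 0.0386% of all genes were called higher in females. Unadjusted p was under 0.05 for 7 members, and for 1511 of all 20714 genes in either direction. DESeq2 called 4 of the members (Fosb, Junb, Egr2 and Egr4), among 167 genes in all. The median log2 difference of the 10 genes was 0.64, against -0.0036 over all tested genes.

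Egr4 ranged from 1077 through 1229 to 1635 normalized counts in MSUS females, and from 689.9 through 838.4 to 1072 in MSUS males. Every MSUS female was above every MSUS male, by a small margin, and this held for Egr4 alone of the 10 genes and for 0.241% of all tested genes. Its log2 difference was 0.56 ± 0.112 (edgeR adjusted p = 0.132). Egr2 ranged from 189.3 through 467.6 to 836.7 in MSUS females, and from 159.6 through 197.5 to 270.8 in MSUS males, so that only MSUS female 4 was within the male range. The log2 difference of Egr2 was 1.24 ± 0.278 (edgeR adjusted p = 0.216), with a 95% interval of 0.70 to 1.79. Egr1 ranged from 9045 through 12050 to 16560 in MSUS females, and from 7332 through 9412 to 13940 in MSUS males, with broad overlap and a log2 difference of 0.36 ± 0.175 (edgeR adjusted p = 0.667).

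Fos ranged from 208.4 through 662.3 to 1161 normalized counts in MSUS females, and from 205.1 through 293.9 to 746.3 in MSUS males. MSUS females 4 and 5 were as low as the males, and MSUS male 6 was as high as the females, so the log2 difference of 0.90 ± 0.467 had an interval from -0.02 to 1.81 (edgeR adjusted p = 0.667). Fosb (817.7 through 1027 to 1361 in MSUS females, 539.5 through 685.0 to 919.6 in MSUS males) differed by 0.56 ± 0.149, and Junb (1504 through 2172 to 3046, against 1276 through 1400 to 1772) by 0.57 ± 0.159. Every MSUS female was above the median of the MSUS males for both of these genes, at edgeR adjusted p of 0.323 and 0.359. Arc (2081 through 4244 to 5933 in MSUS females, 1600 through 2370 to 3855 in MSUS males) differed by 0.70 ± 0.277, Nr4a1 (1548 through 3106 to 5521, against 1561 through 1868 to 2521) by 0.74 ± 0.275. Npas4 (764.8 through 1770 to 2632, against 573.5 through 805.4 to 1692) differed by 0.91 ± 0.367. For Arc and Npas4, 3 of the MSUS females were above every MSUS male and the others lay among the males. For Nr4a1, 4 were above every MSUS male, and MSUS female 4 was below the lowest of them. Ier2 did not follow: it ran from 82.65 through 111.2 to 170.1 in MSUS females and from 100.7 through 112.3 to 234.6 in MSUS males, a log2 difference of -0.16 ± 0.240. All 10 cortical markers had lower fitted levels in the females of MSUS (median log2 difference -1.30, 0 called), the direction opposite to that of the other 9 immediate early genes. With the cortical score as a covariate, Fos, Fosb and Egr4 were called. Egr4 was the member called under most alternatives here, with DESeq2, with upper quartile factors and in the fit of all 24 animals among others.

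**Figure D2:**
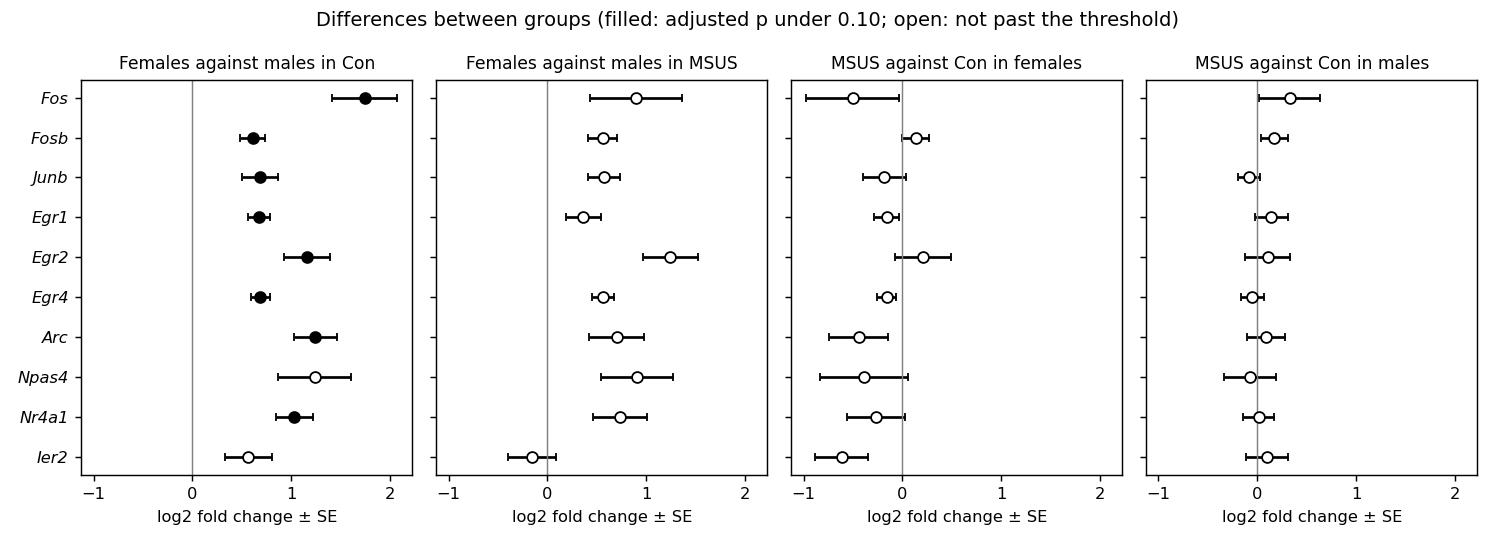
Log2 fold change ± SE of each immediate early gene in each comparison, filled where the edgeR adjusted p is under 0.10. The female-male differences of Con lie above 0 for all 10 genes with 8 filled, those of MSUS lie above 0 for 9 with 0 filled, and those of MSUS against Con lie on both sides of 0.

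Because the sexes differed in the same direction for 9 genes in both groups, the mean of the female groups was also set against the mean of the male groups in 1 fit of all 24 animals, a comparison added after the within-group results were seen and not independent of them. Of the 10 genes, 8 passed, the same 8 as in Con, among 38 genes called higher in females in all (0.177% of 21500). Egr4 was 1.54-fold higher in females (log2 0.62 ± 0.0782, edgeR adjusted p = 7.5e-05) and ranked 13 of all genes by p. Egr2 was 2.29-fold higher (log2 1.20 ± 0.190, edgeR adjusted p = 0.00261), and Fosb 1.50-fold (log2 0.58 ± 0.102, edgeR adjusted p = 0.00845). Arc (log2 0.97 ± 0.184), Nr4a1 (0.88 ± 0.174), Junb (0.62 ± 0.126) and Egr1 (0.52 ± 0.109) had edgeR adjusted p between 0.0233 and 0.0414. Fos had the largest difference (log2 1.32 ± 0.297, edgeR adjusted p = 0.0767), and Npas4 (1.07 ± 0.270, edgeR adjusted p = 0.144) and Ier2 (0.20 ± 0.177, edgeR adjusted p = 0.876) were not called.

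Of the 12 females, 10 exceeded the highest of the 12 males for Egr2 and for Egr4, 8 for Junb, Arc and Nr4a1, 7 for Fos and Npas4, 6 for Fosb, 5 for Egr1 and 1 for Ier2. All 12 females lay above the male median for Fosb, Junb, Egr1, Egr2 and Egr4. The count of called members was 7 to 9 when any 1 animal was left out. It was 8 with the share of pairs outside genes as a covariate, 8 with the cortical score and 9 with both. Within each set of 12 libraries it was smaller, 2 in library numbers 1 to 12 and 0 in 13 to 24.

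Neither sex showed a called difference between MSUS and Con in any of the 10 genes. In females 0 of the 10 genes were called in either direction (edgeR's quasi-likelihood test with Benjamini-Hochberg adjustment over 20571 genes), while 13.1% of all genes were called higher in MSUS and 11.9% lower. Of the 10 genes, 8 had a lower fitted level in MSUS females, with a median log2 difference of -0.23 against -0.0027 over all genes. Ier2 had the smallest p (log2 -0.61 ± 0.266, edgeR adjusted p = 0.131) and was called with DESeq2, with the replicate number as a block, without Con female 5 and without Con female 6. Egr4 was called without MSUS female 6. Fos was at -0.50 ± 0.468, with a 95% interval of -1.42 to 0.41, and Arc at -0.44 ± 0.296, with an interval of -1.02 to 0.14. The intervals were tighter for Egr4 (-0.35 to 0.03) and Egr1 (-0.40 to 0.09). Fosb (0.14 ± 0.138) and Egr2 (0.21 ± 0.282) had higher fitted levels in MSUS females. The cortical score was 2.26 ± 1.70 log2 CPM in MSUS females against 4.39 ± 1.12 in Con females (exact permutation test, two-sided, p = 0.026, adjusted p = 0.209 over 52 tests), and its part in the values of Ier2 and the other genes was not tested beyond the covariate fits. With that score as a covariate, the difference of Ier2 was -0.02 and that of Fos -0.02. The share of pairs outside genes was higher in every MSUS female (36.3% to 43.9%) than in every Con female (31.0% to 34.8%). With this share as the covariate, the differences moved the other way, to -1.07 ± 0.595 for Ier2, -1.66 ± 1.15 for Fos, -1.16 ± 0.651 for Arc and -1.47 ± 0.978 for Npas4, with 0 members called. Because the share separated the 2 groups completely, that fit had little to tell it apart from MSUS.

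In males 0 of the 10 genes were called (edgeR), and 0% of 20691 genes were called in all, with 191 genes, none of the 10 among them, below 0.05 before adjustment. DESeq2 also called 0 members in males. The fitted log2 differences ran from -0.08 for Junb to 0.33 for Fos, whose interval was -0.27 to 0.93. The smallest uncertainty was that of Junb (-0.30 to 0.14) and Egr4 (-0.27 to 0.17). The difference of Fos rested on MSUS male 6 (746.3 normalized counts, against 205.1 to 323.1 in the other 5 MSUS males), and was -0.04 without that animal.

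The interaction, which tests whether the MSUS difference depends on sex, was called for 0 of the 10 genes (edgeR) and for 0% of 21500 genes, with 4031 genes and 0 of the 10 at an unadjusted p under 0.05. It was negative for 9 of the 10, with a median log2 value of -0.30. Fos (-0.84 ± 0.587, edgeR adjusted p = 0.421), Ier2 (-0.72 ± 0.353, edgeR adjusted p = 0.274) and Arc (-0.53 ± 0.365, edgeR adjusted p = 0.411) had the largest values. The larger number of calls between the sexes in Con than in MSUS was therefore not shown to be a difference between the 2 conditions in any of these genes. DESeq2 called 467 genes in this comparison and 0 of the 10.

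Other genes induced by activity showed the sex difference in part. Of 21 tested activity-induced transcription factors, which were listed with earlier results of these data known, 21 had a higher fitted level in Con females and 3 were called. These were Klf2, a Krüppel-like factor (log2 0.47, edgeR adjusted p = 0.0683), Per1, a clock gene that CREB also drives (0.32, edgeR adjusted p = 0.0763), and Ier5 (0.51, edgeR adjusted p = 0.0997). Their median log2 difference was 0.38. Of 30 activity-induced effectors and feedback regulators, 30 had a higher fitted level and 7 were called, with a median of 0.33. Gadd45b, which acts in DNA demethylation and stress signalling, differed by 0.40 (edgeR adjusted p = 0.0428), the MAP kinase phosphatase gene Dusp1 by 0.76 (edgeR adjusted p = 0.0562) and Arl4d, a small GTPase gene, by 0.72 (edgeR adjusted p = 0.0777). The 30 kinases, receptors and transcription factors that act upstream had a median of 0.06, and 0 were called. Camk2a (0.21, edgeR adjusted p = 0.156), Srf (0.18, edgeR adjusted p = 0.226) and Mef2d (0.12, edgeR adjusted p = 0.237) had the smallest p among them. As in the members' own comparison, the called share of all genes was 0.799%.

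In MSUS the same lists were nearer to 0 than the 10 genes. The medians were 0.03 for the other transcription factors, 0.06 for the effectors and 0.04 for the upstream genes, and 0 genes of the 3 lists were called. The smallest p belonged to Egr3 (log2 0.35, edgeR adjusted p = 0.323), Per1 (0.24, edgeR adjusted p = 0.379) and Klf2 (0.23, edgeR adjusted p = 0.667) among the factors. They belonged to Rgs2 (0.29, edgeR adjusted p = 0.352), Nab2 (0.19, edgeR adjusted p = 0.359) and Gadd45g (0.26, edgeR adjusted p = 0.667) among the effectors, and to Srf (0.19, edgeR adjusted p = 0.216), Elk1 (0.10, edgeR adjusted p = 0.667) and Crtc1 (0.13, edgeR adjusted p = 0.667) upstream. Over both groups, Per1 (0.28, edgeR adjusted p = 0.0188), Klf2 (0.35, edgeR adjusted p = 0.0767), Dusp1 (0.55, edgeR adjusted p = 0.0414) and Srf (0.18, edgeR adjusted p = 0.0896), which encodes serum response factor, were called higher in females, the only 4 calls in the 3 lists. Egr3 (0.32), Nab2 (0.18), Arl4d (0.50), Ep300 (0.05) and Elk1 (0.06) had the next smallest p and were not called, with edgeR adjusted p from 0.105 to 0.706.

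**Figure D3:**
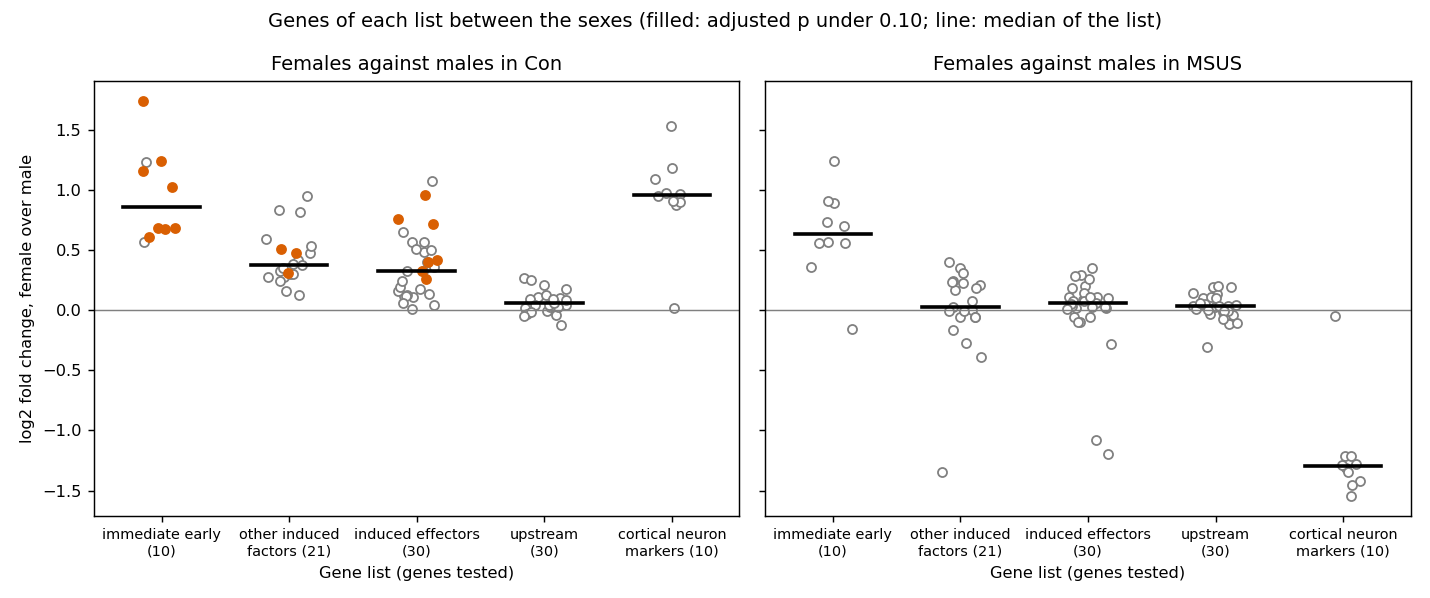
Log2 fold change of females over males in Con and in MSUS for the 10 immediate early genes, 3 lists of related genes and the cortical neuron markers, each circle a gene, filled where the edgeR adjusted p is under 0.10, with the list median as a line. The immediate early gene medians were 0.86 and 0.64, while those of the cortical markers were 0.96 in Con and -1.30 in MSUS.

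Between MSUS and Con females, some genes of these lists were called lower. Among the other transcription factors 3 of 21 were lower, the AP-1 subunits Jund (log2 -0.18, edgeR adjusted p = 0.0230) and Jun (-0.42, edgeR adjusted p = 0.0284) and Ier5 (-0.47, edgeR adjusted p = 0.0334). Among the effectors 2 of 30 were lower, the growth factor signalling inhibitor Spry2 (-0.23, edgeR adjusted p = 0.0408) and the matricellular protein gene Ccn1 (-0.62, edgeR adjusted p = 0.0924), while Spred1 (0.15, edgeR adjusted p = 0.105) was not called. Upstream, 4 of 30 were lower, among them the protein kinase A subunit Prkaca (-0.15, edgeR adjusted p = 0.0189), Camk2a (-0.20, edgeR adjusted p = 0.0195) and Mef2d (-0.13, edgeR adjusted p = 0.0340). These counts of lower genes stand beside a background of 11.9% of all genes. In males 0 genes of the 3 lists were called (edgeR), 3 being below 0.05 before adjustment. First in order of p within each list were Bhlhe40 (log2 0.20), Atf3 (0.31) and Klf4 (0.21) among the factors, Dusp4 (0.36), Ptgs2 (0.58) and Zfp36 (-0.10) among the effectors, and Crem (0.08), Mef2c (0.28) and Drd1 (-0.13) upstream, each at an edgeR adjusted p of 1. In the interaction 0 were called, with Jun (log2 -0.46), Csrnp1 (-0.37), Ier5 (-0.56), Ptgs2 (-1.01), Plk3 (-0.44), Spry2 (-0.30), Mef2d (-0.13), Camk2a (-0.23) and Prkaca (-0.18) at edgeR adjusted p from 0.204 to 0.265.

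**Figure D4:**
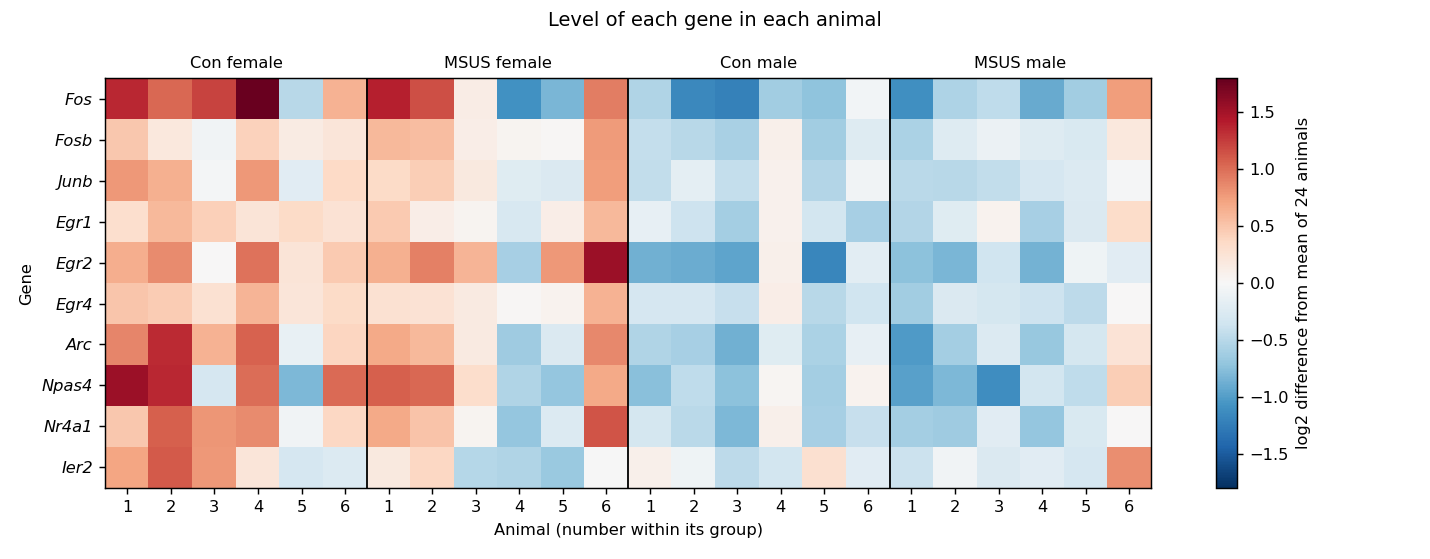
Level of each gene (rows) in each animal (columns, numbered within the group) as the log2 difference from the mean of the 24 animals, red above and blue below. Whole columns share a colour: Con females 1, 2 and 4 and MSUS females 1, 2 and 6 were above the median of the 24 animals for all 10 genes, and MSUS males 1, 4 and 5 for 0.

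Each mouse was first described by the number of genes above the median of all 24 animals, a count that includes the difference between the sexes. Con females 1, 2 and 4 and MSUS females 1, 2 and 6 were above the 24-animal median for all 10 genes, and Con females 3 and 6 for 9. Con female 5 was above it for 6 genes, MSUS female 3 for 8, MSUS female 5 for 3 and MSUS female 4 for 1. Most males were above it for 0 or 1 gene, the exceptions being MSUS male 6 with 8, Con male 4 with 7 and Con male 6 with 4. The number of genes above the median thus ran from 1 to 10 in MSUS females, 0 to 8 in MSUS males and 0 to 7 in Con males, but only from 6 to 10 in Con females. Against the mean of the animal's own group, it ran from 0 to 9 in each Con group and from 0 to 10 in each MSUS group.

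Whether the genes rose and fell together from mouse to mouse was measured as Pearson's r between genes over the 24 animals. It was taken on log2 CPM (reads scaled to library size) after the group means were subtracted, so that no difference between groups enters. All 45 pairs of the 10 genes had a positive r, with a median of 0.716 and a range from 0.19 to 0.91. For 39 of the 45 pairs r was at least 0.5. The median Spearman's rho was 0.694. Without the 2 animals farthest from the median the median r was 0.618. It was 0.735 in the 12 females and 0.702 in the 12 males, and 0.624 and 0.815 in library numbers 1 to 12 and 13 to 24. Genes of 1 library share its depth and composition, and the r of the 10 genes with library size ran from 0.04 to 0.46 and with the share of pairs outside genes from -0.24 to 0.19.

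The closest pair was Arc and Nr4a1 (r = 0.909, rho = 0.918, permutation p = 1e-05 for both, the smallest that 100000 permutations within groups can give, adjusted p = 7.5e-05 and 0.00015 over 45 pairs). Without the 2 farthest animals its r was 0.857, and it was 0.946 in females and 0.814 in males. Junb and Npas4 followed (r = 0.901, rho = 0.866, permutation p = 2e-05 for both, adjusted p = 0.000112 and 0.00018, and r = 0.917 without the 2 farthest animals). Next came Fos and Arc (r = 0.900, rho = 0.914, permutation p = 1e-05 for both, r = 0.834 without the 2) and Fosb and Egr4 (r = 0.896, rho = 0.883, permutation p = 1e-05 for both, r = 0.839 without the 2). The loosest pair was Egr2 and Ier2 (r = 0.19, rho = 0.163, permutation p = 0.400 and 0.476). Egr1 and Npas4 were also loosely related (r = 0.328, rho = 0.240, permutation p = 0.105 and 0.274).

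**Figure D5:**
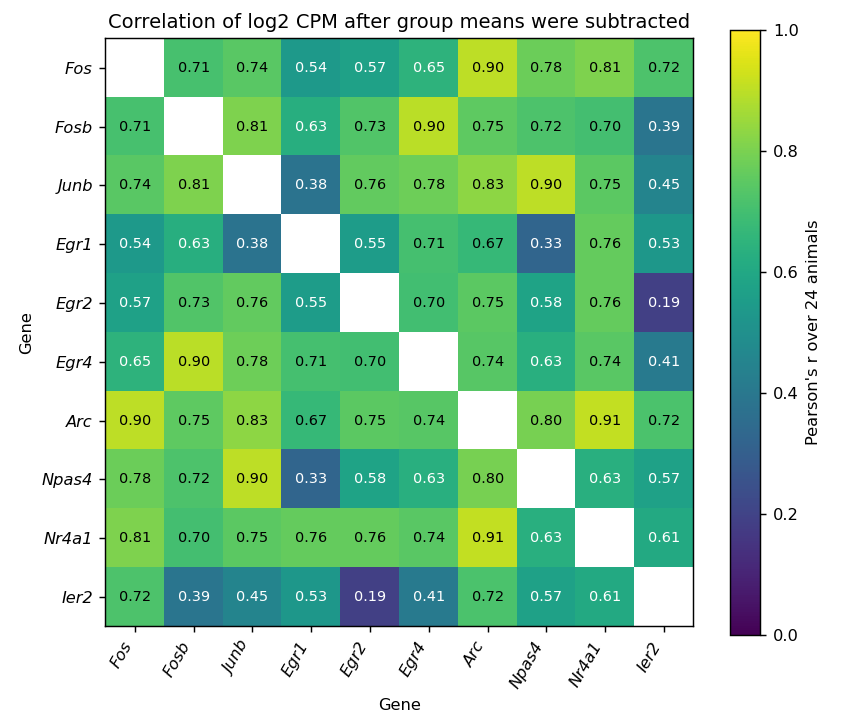
Pearson's r over 24 animals between each pair of immediate early genes, on log2 CPM with the group means removed. The 45 values run from 0.19 to 0.91, with the rows of Ier2 and Egr1 darker (lower r) than the rest.

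Ier2 and Egr1 stood apart from the other 8. The 9 pairs with Ier2 had a median r of 0.530 and those with Egr1 0.552, whereas the 28 pairs without either had a median of 0.748 and none below 0.571 over the 24 animals. Egr2 was looser in library numbers 1 to 12, where its r was 0.0442 with Nr4a1 and 0.123 with Fos, against 0.952 and 0.855 in 13 to 24, and without the 2 farthest animals the r of Fos and Egr2 was 0.386. Set against 21490 other genes, 9 of 9 fellow members were among the 100 genes closest to Arc and 9 to Nr4a1, 8 to Fosb, Egr2, Egr4 and Npas4, and 7 to Fos and Junb. The number was 2 for Egr1 and 0 for Ier2. Of the other genes, 0% had an r with Fosb as high as the median r of Fosb with its fellow members. This share was 0.0558% for Fos, 4.83% for Egr1 and 13.7% for Ier2.

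The genes nearest to each member outside the list were named by the highest r over the 24 animals. Dusp1, the feedback phosphatase, was among the closest 3 for Fos, Fosb, Junb, Egr4, Arc and Nr4a1, and its r with Arc was 0.951. Btg2, an antiproliferative gene, was closest to Fos (0.907) and Npas4 (0.895), followed for Fos by Dusp1 (0.883) and the kinase Sik1 (0.865). Arl4d (0.872) and Ccn1 (0.861) were next for Arc, and Dusp5 (0.866), Dusp1 (0.861) and Klf2 (0.790) were nearest to Nr4a1. The non-coding transcript 1700016P03Rik, which overlaps the miRNA gene Mir212 on chromosome 11, was closest to Junb (0.932) and Egr2 (0.752) and near Fosb (0.702) and Npas4 (0.866). Since Mir212 itself was next for Junb (0.856) and Egr2 (0.747), and both lie on 1 stretch of DNA, these are not separate observations. Egr4 was nearest to Irf2bpl (0.717), Dusp1 (0.699) and Arl4d (0.681). For Fosb the snRNA gene Gm24596 (0.705) and Dusp1 (0.691) completed the closest 3, for Egr2 Spty2d1 (0.746), for Junb Dusp1 (0.840) and for Npas4 C630044B11Rik (0.852).

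Egr1 and Ier2 had other neighbours. Egr1 was closest to Spry2 (0.870), Dusp14 (0.856) and Dnajb5 (0.833), of which Spry2 and Dusp14 encode inhibitors of MAP kinase signalling. Ier2 was closest to Gm37548 (0.940), Tmem178 (0.903) and Serpinb8 (0.899), and none of these is on the lists of activity-induced genes.

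Those 2 genes also moved with the markers of cortical excitatory neurons. The r of Ier2 with the cortical score over the 24 animals was 0.787 (rho = 0.750, permutation p = 3e-05 and 0.0001, adjusted p = 0.0039 and 0.0065 over 130 relations), and 0.734 without the 2 farthest animals. For Egr1 it was 0.608 (rho = 0.674, permutation p = 0.00601 and 0.00161, adjusted p = 0.0977 and 0.0364), and 0.458 without the 2. Ier2 was lower where medium spiny neuron markers were higher, with r = -0.706 for the direct pathway (rho = -0.617, permutation p = 0.00111 and 0.00325) and r = -0.664 for the indirect (rho = -0.702, permutation p = 0.00128 and 0.00033). For Fos the r with the cortical score was 0.540 (rho = 0.499, permutation p = 0.0130 and 0.0253, adjusted p = 0.188 and 0.221). The values for Arc (0.462) and Nr4a1 (0.458) were smaller, and those of Npas4 (0.290), Fosb (0.234), Egr4 (0.228), Junb (0.139) and Egr2 (-0.051) smaller still. Whether cortical tissue in the punch carried the RNA of Ier2 and Egr1 was not tested.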

How the data were processed

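RNA was taken from punches of the frozen bilateral NAc, and strand-specific libraries were made after rRNA depletion. The deposited files hold counts that the authors made with STAR (2.6.1b in the submitters' processing notes, which also name CASAVA 1.8, DESeq2 and HTSeq) on mm10 with GENCODE M15, as raw read pairs per gene. Column 4, the sense strand, was used for all 24 libraries, and 52489 of 52636 identifiers were matched to names in GENCODE M21. Reads in no gene and ambiguous reads were left out of library sizes, and their share is given in the report for reads in no gene. Promoters came from RefSeq tables on GRCm38.p6.

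Genes passing edgeR's filter (minimum count 10) were tested with edgeR 4.0.16 (quasi-likelihood, robust, TMM factors) in R 4.3.3, within each pair of groups or, for the interaction and the comparison over both groups, in all 24 animals. Called means a Benjamini-Hochberg adjusted p under 0.10, as in the study's methods. The study's methods state that each female group held high- and low-estrogenic animals in equal number, and the study also fitted estrous stage in females. Stage was not used here, because the labels give a stage to 6 libraries labelled male and none to 6 labelled female. Normalized counts are counts divided by DESeq2 1.42.0 size factors, and 95% intervals are normal approximations from the SE. Correlations used log2 CPM with a prior count of 2 and 100000 permutations within groups. A marker score is the mean log2 CPM of those of its genes that passed the filter. The scripts were tested on simulated data. The closest pair of libraries of 1 group differed by more than sampling noise (chi-square per gene 5.88). Same-numbered animals did not deviate together as a rule (r from -0.37 to 0.40), so the numbers were not taken to pair them. Those numbered 4 did deviate together in each pairwise comparison (r from 0.25 to 0.40).

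The members and gene lists were chosen with earlier results of these data known. Named were all 10 members, the 3 genes with the smallest p in each pathway list and comparison, and the 3 genes closest to each member. Alternatives were other normalizations, filters, tests and strand settings, a replicate block, library sets, covariates and leaving out each animal. The result of 1 gene among those on the marker lists is not reported here.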

Additional observations from a re-analysis of the deposited data

Results flagged for a closer look

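Tested were the 10 genes, the cortical score and the share of pairs in no gene in 4 groups, giving 48 groups of 6 animals. In 4 of these 48, 1 animal stood apart from the rest of its group. Its gap took up more of the range of the group than Dixon's 95% limit allows. Chance gives this in about 5% of groups, or 1 in 20. MSUS male 6 was the highest of its group for Fos (gap over range 0.782, 746.3 normalized counts), Ier2 (0.812, 234.6 normalized counts) and Npas4 (0.627, 1692 normalized counts). The same animal had the highest cortical score of the 24 (5.96 log2 CPM). Con male 4 was the highest of its group for Egr4 (0.717, 1154 normalized counts), and its cortical score was 1.98 log2 CPM. No cause was tested for these values.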

How the results depend on the processing

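In the comparison of Con females with Con males, all 10 members stayed higher in females in 120 of 120 values with 1 animal left out and 140 of 140 under other settings, and over both groups in 240 of 240 and 130 of 130, but the counts of calls moved. The labels do not say that a replicate number marks a litter or day. The deviations of same-numbered animals from their group means correlated at -0.37 to 0.40, over 0.1 in 2 or 3 of the 6 pairs of a comparison, so they were not taken to pair animals. In each group the odd replicate numbers lie in library numbers 1 to 12 and the even ones in 13 to 24. With the replicate number as a block (replicate block), Con female-male calls were 12 genes and 3 members, and 1 member each was called in MSUS female-male (Egr4) and MSUS against Con females (Ier2).

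Among Con animals, the female-male comparison called 544 genes and 8 members. It called 32 and 2 at an adjusted p under 0.05, 1511 genes with DESeq2, 338 without a filter, 1362 without regard to strand, 62 and 3 in the fit of all 24 animals, 27 and 3 with the cortical score, 11 and 0 with the share of pairs in no gene or both covariates, and 6 and 8 genes with 0 members in library numbers 1 to 12 and 13 to 24. With 1 animal left out the range was 20 to 1395 genes and 1 to 9 members. In MSUS, 28 genes and 0 members became 167 and 4 with DESeq2, 16 genes with at least 10 counts in every animal, 71 and 1 with library set as a covariate, 7 and 10 genes in the library sets, and 1 member with upper quartile factors, with the share of pairs in no gene and in the fit of all 24, 3 with the cortical score and 2 with both (left out: 14 to 64 genes, 0 to 1 member). Over both groups, 69 genes became 189 with DESeq2, 17 and 12 in the library sets with 2 and 0 members, 114 with the share of pairs in no gene, 132 with the cortical score and 212 with both (left out: 43 to 92 genes). MSUS against Con females called 5156 genes, and 3126 at 0.05, 23 and 0 in the library sets, 0 with the share of pairs in no gene or both, and 1694 with the cortical score (left out: 3102 to 5737 genes, 0 to 1 member), and DESeq2 called 1 member. Males had 1 call in library numbers 1 to 12. The interaction had 467 calls with DESeq2, 428 in library numbers 13 to 24 and 0 to 3031 with 1 animal left out, the highest without MSUS male 1.

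The sign of uncalled members turned as follows. With the cortical score, MSUS against Con became 0.0534 for Egr1, 0.091 for Npas4 and 0.1633 for Nr4a1 in females and -0.0145 for Nr4a1 and -0.0217 for Ier2 in males, and MSUS female-male Ier2 became 0.176. The interaction became 0.0683 for Fosb, 0.0031 for Egr1, 0.0391 for Npas4 and 0.0457 for Nr4a1. With the share of pairs in no gene, Egr2 became -0.1677 in females, Ier2 -0.0044 in males and 0.0158 in MSUS female-male, and the interaction 0.1314 for Fosb, -0.1078 for Egr2 and 0.0319 for Egr4. With both, Egr1 became 0.0196 and Egr2 -0.1214 in females, Nr4a1 -0.0123 and Ier2 -0.0467 in males, Ier2 0.2302 in MSUS female-male, and the interaction 0.1824 for Fosb, 0.0071 for Egr1, -0.135 for Egr2, 0.0674 for Egr4 and 0.0194 for Ier2. In library numbers 1 to 12, Junb was 0.0802 and Ier2 -0.3233 in males, Ier2 0.0313 in MSUS female-male, and the interaction -0.2824 for Egr2 and 0.0021 for Npas4. In 13 to 24, Egr2 was -0.3136 and Nr4a1 -0.1585 in males, and the interaction of Fosb 0.0791, and with upper quartile factors it was 0.0076. In males alone, r of Egr2 and Ier2 was -0.0588. The causes were not tested.

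Leaving out 1 animal gave MSUS against Con in males as -0.0419 to 0.4925 for Fos, -0.1261 to 0.0464 for Egr4, -0.0809 to 0.1885 for Arc, -0.3433 to 0.0315 for Npas4, -0.078 to 0.1357 for Nr4a1 and -0.1466 to 0.188 for Ier2, in females as -0.0114 to 0.3868 for Egr2, MSUS female-male Ier2 as -0.2779 to 0.0903, and the interaction as -0.1485 to 0.0523 for Fosb and -0.1189 to 0.2623 for Egr2. The cortical score difference ran from -2.6268 to -1.6893 in females, -0.0128 to 0.888 in males and 0.9163 to 1.6528 between the sexes of Con.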

Other observations

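Markers of oligodendrocytes, the myelin-forming glia, had their lowest median sum in MSUS females (227500 normalized counts, against 258500 to 269600 in the other 3 groups). All 7 had a lower fitted level in MSUS than in Con females, and 5 were called, Mbp (log2 -0.30), Mag (-0.28), Mog (-0.25), Cnp (-0.23) and Mobp (-0.30), at edgeR adjusted p from 0.0128 to 0.0871. Opalin (-0.10) was not called. Of all tested genes, 11.9% were called lower in MSUS females. With the share of pairs in no gene as a covariate, 0 genes of all were called in this comparison. Against the males of MSUS all 7 were lower as well, with Opalin called (-0.34, edgeR adjusted p = 0.00803), and Opalin, Mobp and Cnp were each lower in every female than in every male. Of all 20714 genes tested there, 20 were called lower in females and 82 were lower in every female than in every male. Among the immediate early genes, Ier2 was related to the oligodendrocyte score over the 24 animals (r = 0.638, rho = 0.670, permutation p = 0.00077 and 0.00051, adjusted p = 0.0333 and 0.0166 over 130 relations, r = 0.554 without the 2 farthest animals), while the r of the other 9 ran from -0.14 for Egr2 to 0.31 for Fos. Of 4 listed choroid plexus markers, only 2 passed the filter and made up the score. Ier2 and Egr1 were lower where this score was higher (r = -0.707, rho = -0.626, permutation p = 0.00081 and 0.00168 for Ier2, and r = -0.560, rho = -0.730, permutation p = 0.00294 and 5e-05 for Egr1). Among the 4 listed, Ttr and Folr1 were at 0 in at least 1 library.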
